A study of Mus musculus with 4 samples.

Results

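Zinc finger genes named by the prefixes Zfp, Zbtb, Zkscan, Zscan, Zfhx and Klf (Zfp and Klf followed by a digit) were followed across 4 RNA-seq libraries of mouse myoblasts. The deposited table holds 3760 genes, and 114 of them carry such a name: 9 Klf, 13 Zbtb, 2 Zkscan, 2 Zfhx, 0 Zscan and 88 Zfp genes. The cells were adult C57BL/6 skeletal muscle myoblasts that the labels call twist2 positive, all carried through the same 24 h retroviral infection with a GFP-expressing vector. Twist2 DM cells received the Twist2-IRES-GFP virus, GFP DM cells the GFP virus alone, and after 24 h in growth medium both were kept for 5 days in differentiation medium (DMEM, high glucose, with 2% horse serum). Twist2 GM cells received the Twist2-IRES-GFP virus and GFP GM cells the GFP virus, and both were harvested after the 24 h in growth medium (Ham's F10 with 20% fetal bovine serum). Twist2 is a basic helix-loop-helix factor, and the labels name no clone, animal number or infected share of cells. There was 1 library per group, so no difference below has a replicate check and none was tested.

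Most genes of these families encode C2H2 zinc finger proteins, in which each finger folds around a zinc ion and contacts a few bases of DNA. Klf factors bind GC-rich and CACCC elements, Zbtb factors join their fingers to a BTB domain that recruits corepressors, and Zfp proteins with a KRAB domain recruit Trim28 (KAP1) and silencing enzymes, often at transposable elements. Myoblasts leave the cell cycle and fuse to myotubes in low serum under MyoD and myogenin, and several zinc finger repressors are known to act in that switch. The name does not make every gene a transcription factor: a C2H2 pattern was found in the translated transcripts of 108 genes and was not found in 5 (Zfp365, Zfp703, Zfp36, Zfp36l1 and Zfp36l2), and Zfp862-ps is a pseudogene with no coding sequence. The Zfp36 genes carried CCCH fingers, which bind AU-rich elements of mRNA. A KRAB pattern was found in 45 of the 88 Zfp genes, which had a median of 13 fingers (range 8 to 23), and the pattern misses diverged KRAB domains such as that of Zfp57.

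Levels are the authors' CPM, which divide a gene's reads by its library's sum of reads. Library totals recovered from the CPM steps were 12362290 reads in Twist2 DM, 9235281 in GFP DM, 11068073 in Twist2 GM and 9744075 in GFP GM. No zinc finger gene had fewer than 23 reads in any library. The authors' table is a selection: each gene reached 10 CPM in 2 or more libraries and differed 2-fold from GFP GM in 1 or more of the others. Zinc finger genes that moved less are not analysed here. Twist2 itself, the check of the labels, had 674 CPM in Twist2 DM, 0 in GFP DM, 1438 in Twist2 GM and 0.103 in GFP GM, which follows the virus labels. Myod1, a myoblast marker, had 1068 CPM in Twist2 DM, 809.7 in GFP DM, 547 in Twist2 GM and 1184 in GFP GM. Of 5 myoblast markers 4 were listed, and they did not share a direction. Their log2 ratios of CPM + 1, Twist2 DM over GFP DM, were 0.40 for Myod1, -0.01 for Cdh15, -1.15 for Des and 2.83 for Pax7. Differences are log2 ratios of CPM + 1. A gene counts as higher or lower at 2-fold or more, provided the higher library of the pair reached 10 CPM. Intervals in parentheses are exact 95% intervals of the log2 CPM ratio without the added 1. They cover counting error of the 2 libraries only, and PCR copies of a molecule were not marked. In bulk RNA, fewer cells of a type and less RNA per cell cannot be told apart. Summed CPM of 6 myotube markers was 7071 in Twist2 DM, 46509 in GFP DM, 24.0 in Twist2 GM and 221 in GFP GM. That of 4 proliferation markers was 129.9 in Twist2 DM, 27.4 in GFP DM, 1045 in Twist2 GM and 687 in GFP GM. Of the fibroblast markers 3 of 7 were listed, with 71.0 CPM in Twist2 DM, 6.93 in GFP DM, 60.4 in Twist2 GM and 31.5 in GFP GM, largely Dcn in Twist2 DM. Of 4 smooth muscle and pericyte markers 2 were listed. Acta2 had 5050 CPM in Twist2 DM, 7948 in GFP DM, 113 in Twist2 GM and 361 in GFP GM. Rgs5 had 4.69 CPM in Twist2 DM, 0.108 in GFP DM, 85.1 in Twist2 GM and 51.7 in GFP GM. No marker of endothelial, macrophage, adipocyte or Schwann cells was listed. The genes of the table took 47.2% of all reads in Twist2 DM, 65.1% in GFP DM, 36.9% in Twist2 GM and 39.3% in GFP GM. The part of these cell states and shares in the zinc finger differences was not tested.

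As a group the zinc finger genes were lowest in Twist2 DM. Their summed level was 3788 CPM in Twist2 DM, 6391 in GFP DM, 4614 in Twist2 GM and 5925 in GFP GM. Of the 114 genes, 70 (61.4%) had their lowest value of the 4 libraries in Twist2 DM, against 21.4% of all listed genes, and 29 (25.4%) in GFP DM, against 39.1%. Conversely, 76 (66.7%) had their highest value in GFP GM, against 26.0% of all listed genes. The highest value was in GFP DM for 17 (14.9%, against 34.0%) and in Twist2 GM for 15 (13.2%, against 24.9%). The low values in Twist2 DM were most frequent in the KRAB genes, 38 of 45. They also held for 8 of 13 Zbtb genes, both Zkscan genes and 20 of 43 Zfp genes with no KRAB pattern. Of the Klf genes 2 of 9 were lowest there, and of the Zfhx genes neither. With libraries scaled to the genes outside the table, 84 of the 114 genes and 41 of the 45 KRAB genes were lowest in Twist2 DM. For some genes given below with GFP DM as the low library, the lowest library thus depends on the scaling. The selection of the table bears on these shares: 54 of the 114 genes were listed only because Twist2 DM differed 2-fold from GFP GM, a share of 21.0% in the whole table. Without such genes, 19 of 60 zinc finger genes (31.7%) were lowest in Twist2 DM, against 7.54% of listed genes, and 10 of the 17 KRAB genes left.

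**Figure D1:**
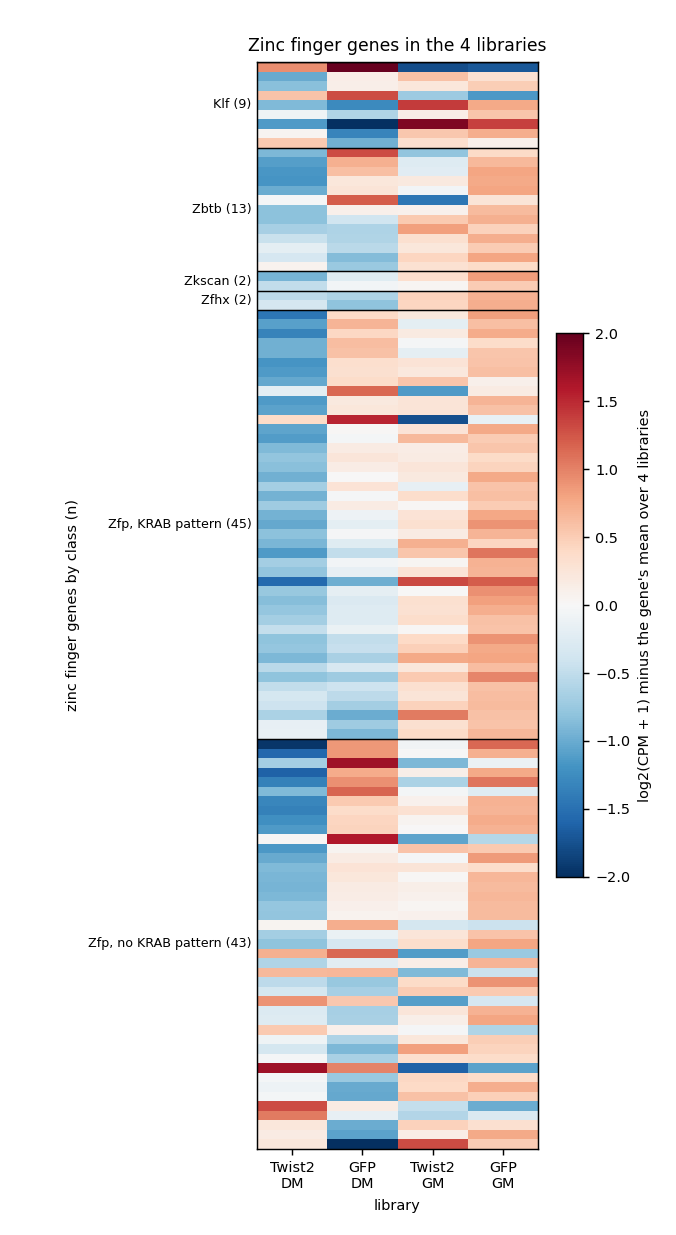
Level of each of the 114 zinc finger genes in the 4 libraries, as log2(CPM + 1) minus the gene's own mean (colour), with genes as rows grouped by class and libraries as columns. Most KRAB rows are at their lowest in Twist2 DM (38 of 45), while the Klf rows are mixed.

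In growth medium, Twist2 cells were compared with GFP cells to see how the 2 libraries differed before differentiation. Of 112 zinc finger genes with enough reads, 0 were 2-fold higher, where 5.21% of all listed genes were. In the other direction 7 were 2-fold lower, 6.25% against 10.6% of all listed genes. The selection bears on these shares: 54 of the 114 genes, against 21.0% of all listed genes, were listed only through Twist2 DM against GFP GM. Those genes are under 2-fold in this comparison by definition. Calls could thus come only from the other 60 zinc finger genes and, over the whole table, from 2972 genes. The median log2 ratio was -0.41, against -0.10 over all listed genes, and 93 of the 114 ratios were below 0. With size factors, which shift all ratios of this comparison by 0.24, 4 genes were lower and 1 was higher. The 7 were Zbtb18, Zbtb20, Zbtb41, Zfp568, Zfp667, Zfp329 and Zfp697.

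Zbtb18 (RP58; chromosome 1, 177442351 to 177450764, GRCm38), a BTB repressor that in mouse muscle acts downstream of MyoD on Id genes, had 151 CPM in Twist2 DM, 356 in GFP DM, 55.7 in Twist2 GM and 183 in GFP GM. Twist2 libraries were the lower of each pair in both media, with log2 ratios of -1.23 (interval -1.32 to -1.16) in differentiation and -1.70 (interval -1.85 to -1.58) in growth medium. Zfp568 (chromosome 7, 29983955 to 30028282), a KRAB repressor known in the mouse embryo for silencing a placental Igf2 promoter, had 238 CPM in Twist2 DM, 528 in GFP DM, 53.7 in Twist2 GM and 165 in GFP GM. GFP DM was again the highest and Twist2 GM the lowest library, with Twist2 over GFP ratios of -1.15 (interval -1.22 to -1.08) in differentiation and -1.60 (interval -1.75 to -1.48) in growth medium. Zfp667, another KRAB gene, had 12.7 CPM in Twist2 DM, 33.6 in GFP DM, 6.14 in Twist2 GM and 16.5 in GFP GM, again lower with Twist2 in both media, with ratios of -1.34 in differentiation and -1.29 in growth medium. These 3 genes were above their own growth medium level in both differentiated libraries.

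The other 4 had their lowest value in Twist2 DM. Zfp697 (chromosome 3, 98382461 to 98753812) had 11.5 CPM in Twist2 DM, 59.1 in GFP DM, 19.6 in Twist2 GM and 65.6 in GFP GM, a ratio of -1.69 (interval -1.97 to -1.52) in growth medium. Of its 50-base stretches 10.5% also occur in transcripts of other genes, mainly Gja5, so its counts are less certain. Zfp329, with 12 fingers, had 3.64 CPM in Twist2 DM, 31.5 in GFP DM, 16.1 in Twist2 GM and 38.7 in GFP GM. Zbtb20, a repressor known from liver and brain, had 8.01 CPM in Twist2 DM, 40.3 in GFP DM, 8.76 in Twist2 GM and 20.9 in GFP GM. Zbtb41 had 18.3 CPM in Twist2 DM, 65.1 in GFP DM, 35.9 in Twist2 GM and 74.1 in GFP GM. The growth medium ratios of the last 3 were -1.22 (interval -1.53 to -1.01), -1.17 (interval -1.62 to -0.90) and -1.03 (interval -1.23 to -0.87).

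Twist factors bind E-boxes. RefSeq promoter windows (GRCm38.p6, 250 bases before to 50 after an annotated start) were at hand for 96 of the 114 genes. They included 6 of the 7 genes above. For zinc finger and listed genes, only the first window of each gene was used, which need not lie at its outermost start. The Zbtb20 window lies within the gene, whose outermost annotated start is at 42875881 of chromosome 16. The E-box CANNTG, which reads the same on both strands, occurred in 68.8% of the 96 windows, in 63.3% of the windows of all listed genes and in 72.3% of all windows of the reference. The form CAGCTG, a case of CANNTG, occurred in 19.8% of the zinc finger windows, in 17.1% of listed genes and in 16.3% of all. The windows of Zbtb41 and Zfp697 held no CANNTG, and those of the other 4 genes follow, on the gene's strand, 5′ to 3′, with each CANNTG in capitals. A match is a description of the letters and not a bound site.
Zbtb18 (chr1:177442101-177442400, plus strand): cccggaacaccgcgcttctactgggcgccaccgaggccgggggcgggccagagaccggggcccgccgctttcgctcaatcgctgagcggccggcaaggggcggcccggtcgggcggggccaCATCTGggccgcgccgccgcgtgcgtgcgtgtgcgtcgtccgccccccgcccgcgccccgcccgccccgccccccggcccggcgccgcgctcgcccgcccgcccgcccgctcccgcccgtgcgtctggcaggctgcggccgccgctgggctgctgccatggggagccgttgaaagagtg
Zbtb20 (chr16:43247034-43247333, plus strand): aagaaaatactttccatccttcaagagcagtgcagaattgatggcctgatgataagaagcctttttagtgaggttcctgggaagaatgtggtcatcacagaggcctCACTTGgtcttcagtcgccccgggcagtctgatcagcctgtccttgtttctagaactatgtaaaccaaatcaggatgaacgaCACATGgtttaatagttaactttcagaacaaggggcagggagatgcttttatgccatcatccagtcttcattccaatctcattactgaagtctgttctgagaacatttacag
Zfp667 (chr7:6286330-6286629, plus strand): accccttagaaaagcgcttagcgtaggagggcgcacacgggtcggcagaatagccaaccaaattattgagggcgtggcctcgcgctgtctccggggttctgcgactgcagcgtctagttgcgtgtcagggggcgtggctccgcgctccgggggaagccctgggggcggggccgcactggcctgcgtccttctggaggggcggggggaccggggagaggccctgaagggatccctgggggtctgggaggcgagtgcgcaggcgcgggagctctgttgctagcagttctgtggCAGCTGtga
Zfp329 (chr7:12818811-12819110, minus strand): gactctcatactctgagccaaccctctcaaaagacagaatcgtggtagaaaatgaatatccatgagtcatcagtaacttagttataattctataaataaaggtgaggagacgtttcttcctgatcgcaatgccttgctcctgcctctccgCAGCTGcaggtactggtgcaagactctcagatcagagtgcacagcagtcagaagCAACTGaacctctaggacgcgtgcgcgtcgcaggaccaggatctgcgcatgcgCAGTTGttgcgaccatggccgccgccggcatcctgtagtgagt
The window of Zbtb18 holds 1 match, that of Zbtb20 2, that of Zfp667 1 and that of Zfp329 3. The CAGCTG form is present in the windows of Zfp667 and Zfp329 among these 4.

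At the other end in growth medium, the highest ratio belonged to Zfp36l2 at 0.79 (interval 0.69 to 0.91), under 2-fold. Klf6 (0.64), Zfp771 (0.57), Zfp36 (0.52), Klf2 (0.49), Zfp820 and Zfp53 (0.45 and 0.45) came next. Zfp882 and Zfp280d, the next lowest Zfp genes after those of the 7, had ratios of -0.90 and -0.88.

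After 5 days in differentiation medium, the comparison of Twist2 with GFP cells asks how the differentiated states differ. Of 94 zinc finger genes with enough reads, 41 were 2-fold lower in Twist2 DM, or 43.6% against 25.2% of all listed genes, and 7 were 2-fold higher, or 7.45% against 25.4%. The median log2 ratio was -0.65, against -0.06 over all listed genes. The selection bears on these shares: 54 of the 114 genes were listed only through Twist2 DM against GFP GM, against 21.0% of all listed genes. A low value in Twist2 DM is thus partly a matter of the selection. Scaling to the genes outside the table shifts all ratios of this comparison by -0.58, which left 67 lower and 1 higher. Subtracting the median of other genes of like GC content and length moved it the other way, to 18 lower and 8 higher with a median of -0.08. The 41 lower genes were 16 of 29 KRAB genes, 6 of 11 Zbtb genes, 17 of 42 Zfp genes with no KRAB pattern and 2 of 8 Klf genes. The 7 higher genes were Klf10, Klf13, Zfp36, Zfp36l2, Zfp213, Zfp521 and Zfp862-ps. None was a Zbtb gene, and no KRAB pattern was found in them. Zfp862-ps has no coding sequence to search, and the pattern misses diverged KRAB domains.

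The lowest ratio was that of Zfp329, at 3.64 CPM in Twist2 DM against 31.5 in GFP DM, a log2 ratio of -2.81 (interval -3.60 to -2.66). For Zfp329 all 3 other libraries were above Twist2 DM. Zfp280c had 7.04 CPM in Twist2 DM, 42.7 in GFP DM, 22.9 in Twist2 GM and 38.2 in GFP GM. Zfp322a had 15.7 CPM in Twist2 DM, 85.9 in GFP DM, 13.4 in Twist2 GM and 23.8 in GFP GM. Zfp397 had 13.3 CPM in Twist2 DM, 72.5 in GFP DM, 46.6 in Twist2 GM and 73.2 in GFP GM, so that Zfp280c and Zfp397 each had nearly equal levels in GFP DM and GFP GM and their lowest level in Twist2 DM. Their ratios in differentiation medium were -2.44 (interval -2.95 to -2.26) for Zfp280c, -2.38 (interval -2.69 to -2.22) for Zfp322a and -2.36 (interval -2.70 to -2.19) for Zfp397. Zfp697 followed at -2.27 (interval -2.64 to -2.09).

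Differentiation medium was then set against growth medium for each virus. In Twist2 cells, 48 of 112 zinc finger genes were 2-fold lower in Twist2 DM than in Twist2 GM, 42.9% against 24.5% of all listed genes. There were 11 genes 2-fold higher, 9.82% against 26.5%, and the median log2 ratio was -0.92, against -0.22 over all listed genes. Scaled to the genes outside the table, 27 were lower. The KRAB genes held 27 of the 48, out of 44 with enough reads, with Zfp568 the single KRAB gene 2-fold higher. The selection bears on these counts too. Of the 114 genes 54, and of the 45 KRAB genes 28, were listed only through Twist2 DM against GFP GM.

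GFP cells in differentiation medium, set against GFP cells in growth medium, give the change of the control cells with differentiation. Of 114 zinc finger genes 43 were 2-fold lower in GFP DM, 37.7% against 40.9% of all listed genes, and 11 were 2-fold higher, 9.65% against 32.6%. The selection bears on these shares: 54 of the 114 genes, against 21.0% of all listed genes, were listed only through Twist2 DM against GFP GM. Such genes are under 2-fold in this comparison by definition. All calls thus fell among the other 60 zinc finger genes and, over the whole table, among 2972 genes. The median log2 ratio was -0.64, against -0.40 over all listed genes. This direction depends on the scaling: with libraries scaled to the genes outside the table, which shifts all ratios of the comparison by 0.78, the median was 0.11, with 6 genes lower and 18 higher. With size factors 18 were lower. The lower genes were 5 of 9 Klf genes, 6 of 13 Zbtb genes, 15 of 45 KRAB genes, 14 of 43 Zfp genes with no KRAB pattern, Zkscan8 and both Zfhx genes, with Klf2 (-3.47) and Zfp36l2 (-2.53) at the low end. Higher were Klf5, Klf9, Zfp106, Zfp36l1, Zfp651, Zfp322a, Zfp568, Zfp57, Zfp36, Zfp282 and Zfp275. Klf5, Klf9, Zfp36l1, Zfp36, Zfp106, Zfp568, Zfp651 and Zfp275 were past 2-fold higher in both cell populations with differentiation, 8 of 114 where 20.3% of all listed genes were, and 17 genes were past 2-fold lower in both, where 16.2% were. Here too the selection left only 60 of the 114 genes, and 2972 of the 3760 listed genes, that could be counted. Among those 17 were Klf2, Klf6, Zbtb10, Zbtb44, Zkscan8, Zfp36l2, Zfp52, Zfp53 and Zfp703.

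The difference of the responses, the log2 ratio of Twist2 cells minus that of GFP cells, was at least 1 in 11 genes, 9.65% against 25.5% of all listed genes, and -1 or less in 21 genes, 18.4% against 12.6%. Its median was -0.22, against 0.19 over all listed genes. These counts depend on the scaling: 4 were high and 34 low with size factors, and 2 high and 43 low with libraries scaled to the genes outside the table. The highest were Zfp862-ps (1.85), Klf10 (1.58) and Zfp521 (1.49), and the lowest Zfp57 (-2.25), Zfp820 (-1.84) and Zfp280c (-1.73). The same quantity is the Twist2 difference in differentiation medium minus that in growth medium, and it has no error estimate with 1 library per group.

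**Figure D2:**
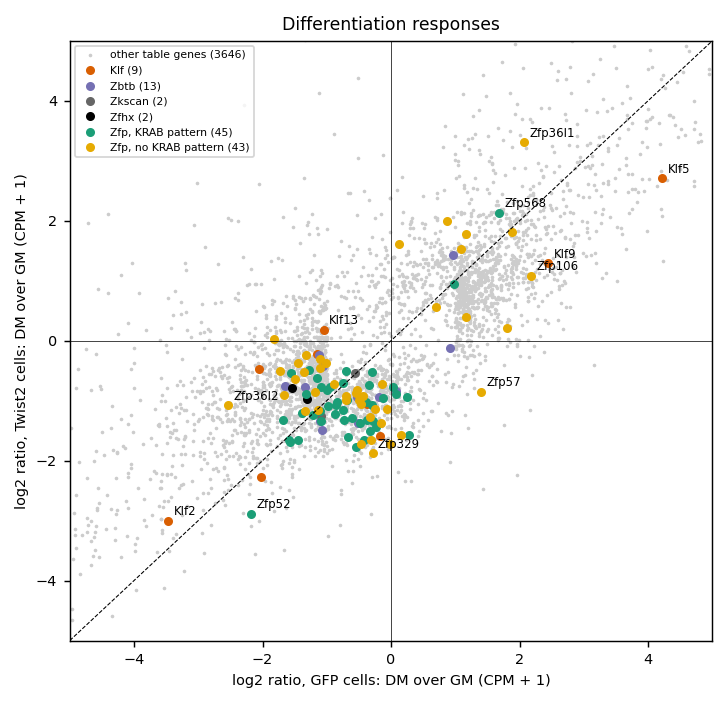
Change with differentiation in Twist2 cells (vertical axis) against that in GFP cells (horizontal axis), each as the log2 ratio of CPM + 1 in differentiation over growth medium, with zinc finger genes in colour over all other listed genes in grey and points beyond the axis limits not drawn. Klf5, Zfp36l1 and Zfp106 lie in the upper right and Klf2 and Zfp52 in the lower left, while Zfp57 lies to the right of and below the line of equal change.

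The Klf factors, activators and repressors with 3 fingers each in the translated transcripts, did not share a direction. Klf5 (chromosome 14, 99298691 to 99315036), which in mouse muscle is known to act with MyoD at differentiation genes, had 19.7 CPM in Twist2 DM, 61.5 in GFP DM, 2.17 in Twist2 GM and 2.36 in GFP GM. With 24 reads in Twist2 GM and 23 in GFP GM it was low in both growth medium libraries, and GFP DM was the highest: its log2 ratios of differentiation over growth medium were 2.70 (interval 2.57 to 3.85) in Twist2 cells and 4.22 (interval 4.10 to 5.37) in GFP cells. The ratio of Twist2 DM over GFP DM was -1.60 (interval -1.87 to -1.43). Klf9, a factor induced by glucocorticoid and thyroid hormone, had 25.1 CPM in Twist2 DM, 42.6 in GFP DM, 9.67 in Twist2 GM and 6.98 in GFP GM. It followed the same order of libraries in differentiation medium, with ratios to growth medium of 1.29 (interval 1.05 to 1.71) in Twist2 cells and 2.45 (interval 2.23 to 3.002) in GFP cells.

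Klf2, a quiescence factor of T cells and endothelium, had 8.09 CPM in Twist2 DM, 3.68 in GFP DM, 71.8 in Twist2 GM and 50.9 in GFP GM. Klf6, a factor of the injury response, had 34.1 CPM in Twist2 DM, 25.8 in GFP DM, 168 in Twist2 GM and 107 in GFP GM. Both were high in growth medium and low after differentiation with either virus: Klf2 ratios were -3.002 (interval -3.47 to -2.85) in Twist2 and -3.47 (interval -4.34 to -3.29) in GFP cells, and Klf6 ratios -2.27 (interval -2.46 to -2.15) in Twist2 and -2.02 (interval -2.27 to -1.86) in GFP cells. Klf10, an early response gene of TGF-beta signalling, had 71.4 CPM in Twist2 DM, 26.7 in GFP DM, 99.5 in Twist2 GM and 114 in GFP GM. Klf13 had 108 CPM in Twist2 DM, 38.3 in GFP DM, 95.5 in Twist2 GM and 80.5 in GFP GM. For these 2 genes GFP DM stood alone as the low library, and Twist2 DM exceeded it by 1.38 (interval 1.21 to 1.63) for Klf10 and 1.47 (interval 1.33 to 1.67) for Klf13. Klf11, the close relative of Klf10, had 12.9 CPM in Twist2 DM, 8.77 in GFP DM, 15.3 in Twist2 GM and 20.6 in GFP GM, with the same low library.

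Klf4, one of the factors used to reprogram cells to pluripotency, had 46.5 CPM in Twist2 DM, 104 in GFP DM, 142 in Twist2 GM and 117 in GFP GM. Here Twist2 DM was the low library, by -1.14 (interval -1.31 to -1.01) against GFP DM and -1.59 (interval -1.75 to -1.47) against Twist2 GM, while GFP DM and GFP GM differed by -0.17. Klf8, a repressor, had 6.31 CPM in Twist2 DM, 13.1 in GFP DM, 14.3 in Twist2 GM and 17.2 in GFP GM and was also lowest in Twist2 DM. The median Klf ratio of Twist2 DM over GFP DM was 0.39, and -0.19 with libraries scaled to genes outside the table.

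**Figure D3:**
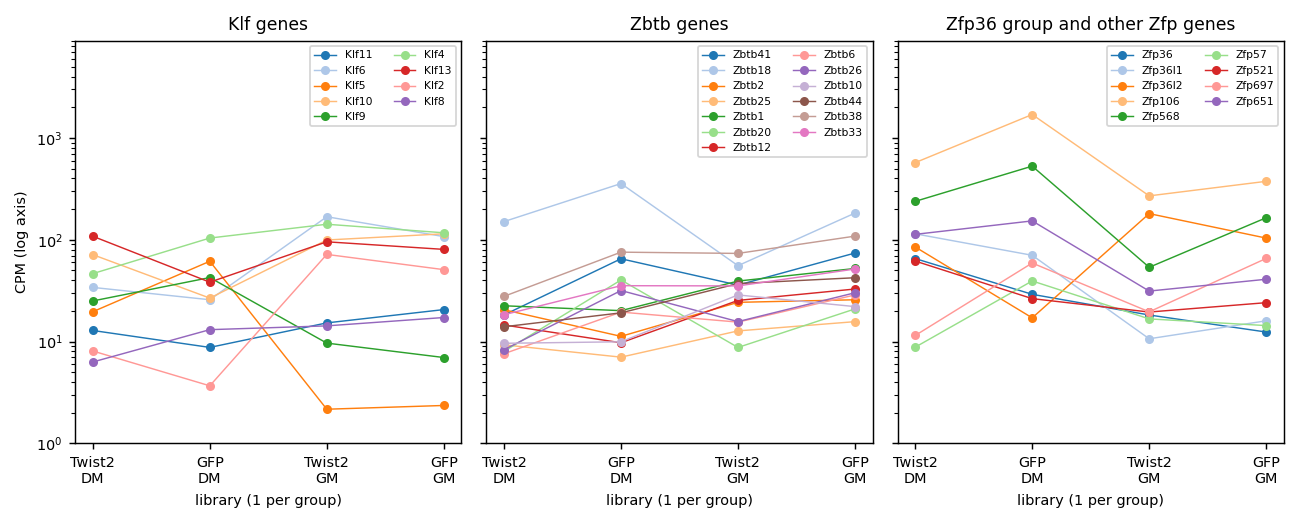
CPM of Klf genes, Zbtb genes and a set of Zfp genes in each of the 4 libraries, on a log axis, with 1 point per library and lines joining points of the same gene. Klf5 is above its growth medium level in both differentiated libraries (19.7 CPM in Twist2 DM and 61.5 in GFP DM, against 2.17 in Twist2 GM and 2.36 in GFP GM), and Zbtb18, Zfp568 and Zfp106 are higher in GFP DM than in Twist2 DM.

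Among the BTB factors, Zbtb18 had the highest level per kilobase of exon in both differentiated libraries. It was the single one above 2-fold with differentiation, by 1.42 (interval 1.31 to 1.57) in Twist2 cells and 0.96 (interval 0.88 to 1.05) in GFP cells, where it stayed under 2-fold. Zbtb20, Zbtb26, Zbtb41, Zbtb38, Zbtb6 and Zbtb18 were 2-fold lower in Twist2 DM than in GFP DM. Zbtb38 and Zbtb33 (Kaiso) belong to the BTB proteins that bind methylated CpG. Zbtb38 had 27.8 CPM in Twist2 DM, 75.6 in GFP DM, 73.5 in Twist2 GM and 109 in GFP GM. Zbtb33 had 18.4 CPM in Twist2 DM, 35.4 in GFP DM, 35.2 in Twist2 GM and 51.6 in GFP GM. Both were lowest in Twist2 DM, with ratios to GFP DM of -1.41 (interval -1.63 to -1.25) for Zbtb38 and -0.91 (interval -1.20 to -0.70) for Zbtb33. Zbtb26 had 8.33 CPM in Twist2 DM, 31.7 in GFP DM, 15.7 in Twist2 GM and 30.2 in GFP GM. Zbtb6, whose transcripts share 9.2% of their 50-base stretches with other genes, mainly Zbtb26, had 7.60 CPM in Twist2 DM, 19.5 in GFP DM, 15.5 in Twist2 GM and 28.7 in GFP GM. Both were lowest in Twist2 DM.

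Zbtb1, Zbtb2, Zbtb12 and Zbtb25 had GFP DM as their lowest library instead. This depends on the scaling: scaling to the genes outside the table shifts ratios of Twist2 DM over GFP DM by -0.58. The ratios of Zbtb1 (0.15), Zbtb12 (0.53) and Zbtb25 (0.36) were smaller than this shift, and that of Zbtb2 (0.81) was larger. Zbtb1, a factor of lymphocyte development, had 22.5 CPM in Twist2 DM, 20.1 in GFP DM, 39.3 in Twist2 GM and 52.2 in GFP GM. Its 2 differentiated libraries were close. Zbtb12 had 14.6 CPM in Twist2 DM, 9.75 in GFP DM, 25.4 in Twist2 GM and 32.8 in GFP GM. Zbtb2 had 20.5 CPM in Twist2 DM, 11.3 in GFP DM, 24.3 in Twist2 GM and 25.8 in GFP GM. Zbtb25 had 9.30 CPM in Twist2 DM, 7.04 in GFP DM, 12.7 in Twist2 GM and 15.7 in GFP GM. None of the 4 differed 2-fold between Twist2 DM and GFP DM, and each was 2-fold lower in GFP DM than in GFP GM, Zbtb12 by -1.66 (interval -2.11 to -1.41). Zbtb10 had 9.63 CPM in Twist2 DM, 9.96 in GFP DM, 28.7 in Twist2 GM and 22.1 in GFP GM. Zbtb44 had 13.99 CPM in Twist2 DM, 19.2 in GFP DM, 37.1 in Twist2 GM and 42.4 in GFP GM. Both were lower after differentiation with either virus and under 2-fold apart between viruses. These calls in GFP cells depend on the scaling: 6 Zbtb genes were 2-fold lower in GFP DM than in GFP GM, against 1 with size factors, 1 with median centring and 0 with libraries scaled to genes outside the table. The median ratio of the 13 genes in GFP cells was -0.54, and 0.23 under the last of these.

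The 2 Zkscan genes, which join a SCAN and a KRAB domain to their fingers, had the same order of libraries, lowest in Twist2 DM and highest in GFP GM. Zkscan1 had 38.02 CPM in Twist2 DM, 52.1 in GFP DM, 55.6 in Twist2 GM and 77.1 in GFP GM. Zkscan8 had 10.1 CPM in Twist2 DM, 16.9 in GFP DM, 25.6 in Twist2 GM and 36.9 in GFP GM. Zkscan8 passed 2-fold with differentiation in both populations, by -1.26 (interval -1.65 to -1.03) in Twist2 cells and -1.08 (interval -1.41 to -0.85) in GFP cells, and Zkscan1 passed it in neither. The 2 Zfhx genes encode very large proteins with homeodomains beside their fingers, of which 21 were found in Zfhx3 and 19 in Zfhx4. Zfhx3 had 35.8 CPM in Twist2 DM, 33.2 in GFP DM, 71.3 in Twist2 GM and 84.2 in GFP GM. Zfhx4 had 55.8 CPM in Twist2 DM, 40.4 in GFP DM, 96.9 in Twist2 GM and 119 in GFP GM. Both were lowest in GFP DM, at ratios to GFP GM of -1.31 (interval -1.53 to -1.15) and -1.54 (interval -1.74 to -1.39), and the corresponding ratios in Twist2 cells stayed under 2-fold. With libraries scaled to genes outside the table, their median ratio of Twist2 DM over GFP DM was -0.30, against 0.28 here, so that Twist2 DM was then the lower of that pair.

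The 45 KRAB genes summed to 663 CPM in Twist2 DM, 1385 in GFP DM, 1048 in Twist2 GM and 1489 in GFP GM; Zfp568 made up 238 CPM of that sum in Twist2 DM and 528 in GFP DM. Their median ratio of Twist2 DM over GFP DM was -0.82, and 40 of 45 ratios were below 0. Of these 45 genes, 28 were listed only through Twist2 DM against GFP GM, so low values there are partly a matter of the selection. Zfp52 (14 fingers) had 4.21 CPM in Twist2 DM, 6.82 in GFP DM, 37.4 in Twist2 GM and 34.5 in GFP GM, the largest change of a KRAB gene with differentiation, by -2.88 (interval -3.60 to -2.73) in Twist2 cells and -2.18 (interval -2.75 to -1.95) in GFP cells. Zfp53, its neighbour, had 7.85 CPM in Twist2 DM, 5.85 in GFP DM, 26.9 in Twist2 GM and 19.5 in GFP GM, under 2-fold apart between viruses in each medium. Zfp760 had 6.15 CPM in Twist2 DM, 14.1 in GFP DM, 23.4 in Twist2 GM and 21.04 in GFP GM. Zfp820 had 3.40 CPM in Twist2 DM, 10.5 in GFP DM, 12.02 in Twist2 GM and 8.52 in GFP GM. These 2 genes of the same neighbourhood were at their lowest in Twist2 DM, with ratios to Twist2 GM of -1.77 (interval -2.32 to -1.55) and -1.57 (interval -2.36 to -1.31).

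Zfp961 had 3.88 CPM in Twist2 DM, 4.22 in GFP DM, 11.2 in Twist2 GM and 15.8 in GFP GM. Zfp882 had 6.23 CPM in Twist2 DM, 9.75 in GFP DM, 11.3 in Twist2 GM and 21.96 in GFP GM. Both were lower in the 2 differentiated libraries than in the 2 growth medium libraries. Zfp937 had 2.91 CPM in Twist2 DM, 5.09 in GFP DM, 11.7 in Twist2 GM and 17.1 in GFP GM, but 29.4% of its 50-base stretches also occur in other transcripts, mainly those of Zfp442. Such sharing reached 20% in 5 zinc finger genes, Zfp955a (51.8%), Zfp617 (41.5%), Zfp955b (31.4%), Zfp937 and Zfp93 (20.8%), and 5% in 11, and their counts are uncertain because the handling of ambiguous reads is not given in the sources used here.

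KRAB genes lie in arrays, and 23 of the 114 zinc finger genes were on chromosome 17. With neighbours taken as at most 500 kb apart, 12 of them, all with a KRAB pattern, lay at 21008903 to 22867134 of chromosome 17 (GRCm38), from Zfp160 to Zfp945. Their median ratio of Twist2 DM over GFP DM was -0.94, and 11 of the 12 were lowest in Twist2 DM. Since 9 of the 12 were listed only through Twist2 DM against GFP GM, a low value there is partly a matter of the selection, and of the other 3 genes 2 were lowest there. A second array of 7 KRAB genes at 32765496 to 33394641, from Zfp871 to Zfp101, had a median of -0.97, and all 7 were lowest in Twist2 DM, but 6 of the 7 were listed only through that library. On chromosome 7, Zfp568, Zfp260 and Zfp146 lay together at 29983955 to 30169750, with a median of -0.55. Both Zfp260 and Zfp146 were lowest in Twist2 DM and listed only through it, and Zfp568 was neither. The other arrays, of 4 genes each, had higher medians: -0.38 on chromosome 5 (4 lowest in Twist2 DM), -0.33 on chromosome 8 (3 lowest there) and -0.20 on chromosome 9 (2 lowest there).

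Of the 43 Zfp genes with no KRAB pattern, the Zfp36 genes encode proteins that speed the decay of AU-rich mRNA. Zfp36 (tristetraprolin) had 65.4 CPM in Twist2 DM, 29.1 in GFP DM, 18.3 in Twist2 GM and 12.4 in GFP GM. Zfp36l1 had 114 CPM in Twist2 DM, 70.4 in GFP DM, 10.7 in Twist2 GM and 16.01 in GFP GM. Both were higher after differentiation with either virus, and highest in Twist2 DM: Zfp36 by 1.79 (interval 1.62 to 2.07) and Zfp36l1 by 3.31 (interval 3.15 to 3.71) over Twist2 GM. Zfp36l2 (chromosome 17, 84183931 to 84187947) had 84.9 CPM in Twist2 DM, 17.1 in GFP DM, 181 in Twist2 GM and 104 in GFP GM. It ran the other way with the medium, and its ratio of Twist2 DM over GFP DM, 2.25 (interval 2.07 to 2.56), was the highest of the 114 genes.

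Zfp106 (chromosome 2, 120506820 to 120563843), an RNA-binding protein that mice need to maintain muscle and motor neurons, was the most abundant zinc finger gene per kilobase of exon in both differentiated libraries. It had 572 CPM in Twist2 DM, 1697 in GFP DM, 269.8 in Twist2 GM and 375 in GFP GM. Its log2 ratios of differentiation over growth medium were 1.08 (interval 1.02 to 1.15) in Twist2 cells and 2.18 (interval 2.13 to 2.23) in GFP cells, and that of Twist2 DM over GFP DM was -1.57 (interval -1.61 to -1.53). Zfp346, which binds double-stranded RNA, had 142 CPM in Twist2 DM, 111 in GFP DM, 35.1 in Twist2 GM and 60.1 in GFP GM, and passed 2-fold with differentiation in Twist2 cells, 1.99 (interval 1.86 to 2.18), but not in GFP cells, 0.87. Zfp651 had 113 CPM in Twist2 DM, 153 in GFP DM, 31.4 in Twist2 GM and 40.9 in GFP GM, with near equal changes in the 2 populations (1.82 in Twist2 and 1.88 in GFP cells).

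Zfp57, known for keeping the methylation of imprinted regions, had 8.82 CPM in Twist2 DM, 39.4 in GFP DM, 16.7 in Twist2 GM and 14.4 in GFP GM. GFP DM was its high library and Twist2 DM its low one, with a ratio between them of -2.04 (interval -2.48 to -1.85). Zfp521, a factor of progenitor cells that counters Ebf1, had 61.8 CPM in Twist2 DM, 26.4 in GFP DM, 19.5 in Twist2 GM and 24.1 in GFP GM, where Twist2 DM alone was high, by 1.20 (interval 1.02 to 1.44) over GFP DM. Zfp516 had 82.7 CPM in Twist2 DM, 43.9 in GFP DM, 118 in Twist2 GM and 148 in GFP GM. Zfp462 had 52.7 CPM in Twist2 DM, 40.1 in GFP DM, 75.7 in Twist2 GM and 104 in GFP GM. Zfp516, known from brown fat, and Zfp462, a chromatin regulator with 33 fingers found, were lowest in GFP DM, at ratios to GFP GM of -1.73 (interval -1.92 to -1.59) and -1.35 (interval -1.55 to -1.20).

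Zfp703, which had no C2H2 pattern and is known from breast cancer, had 69.97 CPM in Twist2 DM, 47.5 in GFP DM, 158 in Twist2 GM and 122 in GFP GM. Zfp217, known as an oncogene that works with corepressors, had 19.6 CPM in Twist2 DM, 13.2 in GFP DM, 24.5 in Twist2 GM and 29.7 in GFP GM. Zfp148 (ZBP-89), which binds GC-rich elements, had 36.97 CPM in Twist2 DM, 80.02 in GFP DM, 77.7 in Twist2 GM and 111 in GFP GM. Zfp703 and Zfp217 had GFP DM as the low library and Zfp148 had Twist2 DM, -1.09 (interval -1.29 to -0.94) against GFP DM. Zfp326, Zfp518b and Zfp213 also had GFP DM as their low library, as did the pseudogene Zfp862-ps. Zfp326 had 22.5 CPM in Twist2 DM, 18.8 in GFP DM, 42.9 in Twist2 GM and 62.1 in GFP GM. Zfp518b had 15.5 CPM in Twist2 DM, 7.36 in GFP DM, 24.5 in Twist2 GM and 22.7 in GFP GM. Zfp213 had 11.9 CPM in Twist2 DM, 4.55 in GFP DM, 14.2 in Twist2 GM and 12.8 in GFP GM. Twist2 DM was the next lowest library of each. Zfp862-ps had 16.9 CPM in Twist2 DM, 6.61 in GFP DM, 16.5 in Twist2 GM and 25.8 in GFP GM. Zfp449 had 5.50 CPM in Twist2 DM, 13.97 in GFP DM, 20.5 in Twist2 GM and 19.8 in GFP GM. Zfp280d had 18.4 CPM in Twist2 DM, 42.7 in GFP DM, 37.5 in Twist2 GM and 69.7 in GFP GM. Both were lowest in Twist2 DM. Zfp771 had 22.9 CPM in Twist2 DM, 16.8 in GFP DM, 15.3 in Twist2 GM and 9.95 in GFP GM, lowest in GFP GM.

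The remaining 54 Zfp genes, 36 of them with a KRAB pattern, are given by counts, and a few of them by their place or shared sequence. The zinc finger genes as a group had AT-rich transcripts, with a median GC content of 41.9% (KRAB genes 40.3%) against 48.7% over the listed genes. In the lowest of 5 GC groups of the table (33.0 to 42.3% GC), the median ratio of Twist2 DM over GFP DM was -0.94 for 60 zinc finger genes and -0.95 for 690 other genes. Over the 5 GC groups, low to high, the zinc finger genes (60, 18, 18, 10 and 8 genes) had medians of -0.94, -0.70, 0.15, 0.65 and 0.54, and the other genes -0.95, -0.12, 0.41, 0.46 and 0.50. In the 2 groups next above the lowest the zinc finger median was thus the lower of the pair. With the median of other genes of like GC and exon length subtracted, the median over the 114 genes was -0.08, with 18 genes 2-fold lower and 8 higher, and that of the KRAB genes -0.03. Zinc finger genes under 45% GC were lowest in Twist2 DM in 62 of 73 cases, and those at 45% or above in 8 of 41. Over all listed genes of any GC the share was 21.4%, and it was not computed on each side of 45%. These counts include the 54 zinc finger genes listed only through Twist2 DM against GFP GM. What sets the GC trend between these 2 libraries was not tested. Zbtb18, Klf5, Zfp36l2 and Zfp106 lay at 42.4, 47.9, 54.8 and 47.1% GC. Of the genes with the lowest ratios of Twist2 DM over GFP DM, Zfp329, Zfp280c, Zfp322a and Zfp397 lay at 39.7, 37.8, 38.5 and 40.0% GC, within the lowest GC group. Zfp697, which followed them, lay at 50.8%.

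**Figure D4:**
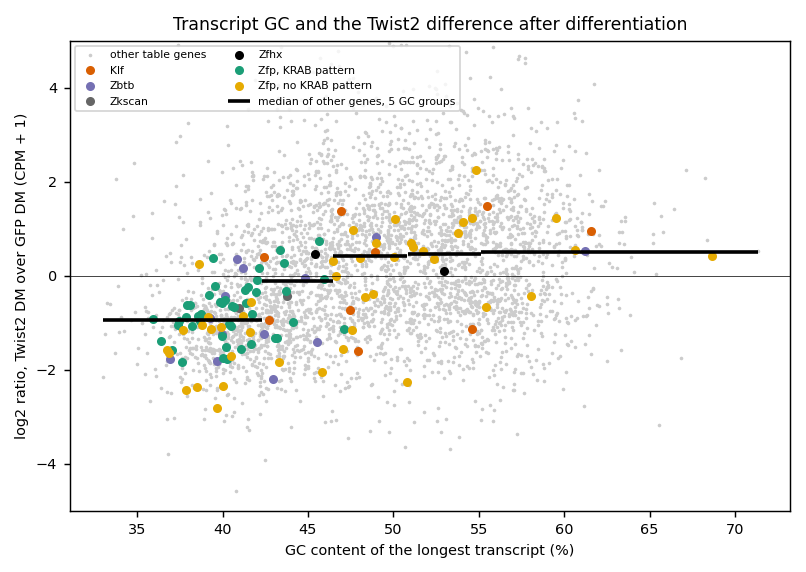
Log2 ratio of Twist2 DM over GFP DM against the GC percent of the longest transcript, with zinc finger genes in colour by class, other listed genes in grey, and black bars for the medians of the other genes in 5 GC groups (-0.95, -0.12, 0.41, 0.46 and 0.50 from low to high GC). KRAB genes lie at low GC, where the other genes are also low in Twist2 DM.

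Partner genes of these families were followed as well. Of 17 genes of the KRAB corepressor pathway 5 were listed. In differentiation medium 2 of the 4 with enough reads were 2-fold higher in Twist2 cells (Uhrf1 and Dnmt1) and 1, Smarcad1 (-1.09), was lower, where 25.4% and 25.2% of all listed genes were higher and lower. The median was 0.19 against -0.06 over all listed genes. Uhrf1, which recruits Dnmt1 to newly copied DNA, had 26.5 CPM in Twist2 DM, 2.17 in GFP DM, 54.3 in Twist2 GM and 36.7 in GFP GM. Dnmt1, the maintenance methyltransferase, had 93.8 CPM in Twist2 DM, 35.7 in GFP DM, 143 in Twist2 GM and 109.6 in GFP GM. Both are known to be induced in S phase, and their order of libraries was that of the summed proliferation markers. A part of dividing cells in these levels was not tested. Dnmt3a, a methyltransferase that sets new marks, had 82.02 CPM in Twist2 DM, 71.9 in GFP DM, 21.3 in Twist2 GM and 27.2 in GFP GM, higher in both differentiated libraries. Cbx3 (HP1 gamma) had 4.21 CPM in Twist2 DM, 5.96 in GFP DM, 10.9 in Twist2 GM and 14.6 in GFP GM. Trim28 itself was not among the listed genes.

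Of 15 corepressor genes that BTB factors use 3 were listed, and 1 was 2-fold higher in Twist2 DM than in GFP DM, as were 25.4% of all listed genes. Hdac7 was the higher one, with 837 reads in Twist2 DM and 157 in GFP DM (log2 ratio 1.93). Hdac9 had 15.5 CPM in Twist2 DM, 25.8 in GFP DM, 1.45 in Twist2 GM and 4.21 in GFP GM. Bcor had 86.7 CPM in Twist2 DM, 72.98 in GFP DM, 107 in Twist2 GM and 157 in GFP GM. Of 69 zinc finger factors with other names 21 were listed. In differentiation medium 8 of 19 with enough reads were 2-fold higher in Twist2 cells and 2 lower, where 25.4% and 25.2% of all listed genes were higher and lower. Their median was 0.69, against -0.06 over all listed genes. Snai2, a repressor of the Snail family, had 32.4 CPM in Twist2 DM, 5.85 in GFP DM, 146 in Twist2 GM and 45.9 in GFP GM. Plagl1, an imprinted growth regulator, had 279.7 CPM in Twist2 DM, 105 in GFP DM, 293 in Twist2 GM and 1192 in GFP GM. These 2 were highest in different growth medium libraries. Tshz1 had 34.1 CPM in Twist2 DM, 11.3 in GFP DM, 69.8 in Twist2 GM and 81.6 in GFP GM. Tshz3 had 46.4 CPM in Twist2 DM, 15.8 in GFP DM, 70.5 in Twist2 GM and 104 in GFP GM. All 4 were lowest in GFP DM, with log2 ratios of Twist2 DM over GFP DM between 1.41 and 2.29.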

How the data were processed

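Per the labels' protocols, total RNA was taken with Trizol and sequenced as standard Illumina libraries. TopHat2 2.0.0, DESeq2 1.6.3 and the build GRCm38 (mm10) are listed in the submitters' processing notes, with no roles. Counter, annotation and strandedness are not given in the sources used, so reads of overlapping or antisense genes cannot be told apart. The authors deposited CPM for 4 libraries and 3 columns of log2 ratios against GFP growth medium, per the file headers. Those log2 columns equal ratios of CPM + 1 within 1.3e-11 and were used for that check alone. CPM steps gave whole reads for 100.0% of values (tolerance 0.001 reads).

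From these values, log2 ratios of CPM + 1, calls at 2-fold where the higher library of the pair reached 10 CPM, and exact (Clopper-Pearson) 95% intervals of the read ratio were computed with Python 3.11.15, numpy 2.4.6, pandas 2.3.3 and scipy 1.17.1, and the steps were tested on simulated data. With 1 library per group no test across conditions was made. Gene positions, exon length, GC, finger and KRAB patterns come from the GENCODE M21 transcripts, where all 114 symbols matched, and promoters from RefSeq. Text names every Klf, Zbtb, Zkscan and Zfhx gene, the Zfp genes with the 6 highest and 6 lowest ratios of each comparison, the 3 highest and 3 lowest response differences, and Zfp genes with well known roles; of partner lists it names the 4 with the largest ratios. Genes named only for place, shared sequence or membership in a short count (Zfp275, Zfp282, Zfp365, Smarcad1 and those of the arrays) were chosen after their values were seen. The genes and lists were chosen with earlier results of these data known. Alternatives were other pseudocounts, minimum levels, thresholds and scalings, and subtraction of GC and length medians and leaving out genes listed through Twist2 DM alone, which were added after seeing the data.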

Additional observations from a re-analysis of the deposited data

Results flagged for a closer look

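In 7 of 114 zinc finger genes (6.14%, against 10.7% of all listed genes) a pair of ratios had opposite signs, with counting intervals that leave out 0 for both ratios and at least 1 of them past 2-fold. With 1 library per group none of these differences was tested. With differentiation, Zfp57 had a log2 ratio of -0.85 in Twist2 cells and 1.39 in GFP cells, a difference of -2.25, and Klf13 had 0.18 in Twist2 cells and -1.05 in GFP cells, a difference of 1.23. For Twist2 over GFP cells, Klf10 had 1.38 in differentiation medium and -0.20 in growth medium, a difference of 1.58. Zfp521 had 1.20 in differentiation medium and -0.29 in growth medium, a difference of 1.49. Zfp862-ps had 1.24 and -0.61 in the same 2 media, a difference of 1.85. Klf4 ran the other way, with -1.14 in differentiation medium and 0.28 in growth medium, a difference of -1.42, and so did Zfp820, with -1.39 and 0.45, a difference of -1.84. No zinc finger gene was past 2-fold in opposite directions in a pair. Zfp57, Klf4 and Klf13 have transcript GC contents of 45.8, 54.6 and 55.5%, and Zfp820 of 36.4%.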

How the results depend on the processing

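Of 1200 values of the 60 named genes (4 comparisons under 5 alternatives of pseudocount and scaling), 306 moved by more than the reach of their counting interval to either side. With a pseudocount of 5 CPM, the lower genes numbered 4 in growth medium and, with differentiation, 31 in Twist2 cells and 26 in GFP cells, and 12 response differences were low. A 20 CPM minimum left 29 lower with differentiation in Twist2 cells. With size factors, 4 were lower and 1 higher in growth medium, 18 lower in GFP cells, and 34 response differences were low and 4 high. Scaled to genes outside the table, 67 were lower and 1 higher in differentiation medium, 27 lower in Twist2 cells, 6 lower and 18 higher in GFP cells, and 43 response differences were low and 2 high. At 3-fold, 3 were lower in growth medium, 16 lower and 1 higher in differentiation medium, 14 lower and 7 higher in Twist2 cells, 10 lower and 7 higher in GFP cells, and 6 response differences were low and 1 high. Median centring left 17 lower in GFP cells and 7 high response differences. With GC and length medians subtracted, 4 were lower in growth medium, 18 in differentiation medium, 18 in Twist2 cells and 19 in GFP cells. Without genes listed through Twist2 differentiation medium alone, 19 genes, 10 of them KRAB, were lowest there. The medians ranged over the alternatives from -0.46 to -0.12 in growth medium, -1.19 to -0.08 in differentiation medium, -0.96 to -0.34 in Twist2 cells with differentiation and -0.68 to 0.11 in GFP cells. The cause of these changes was not tested. Leaving out a replicate was not possible with 1 library per group. No paired analysis was possible because each group holds 1 library. The smallest read number, 23, limits single values; missing replicates limit every comparison.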
